A study of Mus musculus with 9 samples.

Results

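The 38 genes described here encode enzymes of cholesterol and fatty acid synthesis and the proteins that regulate sterol supply in mouse bone marrow progenitors. They were named from general knowledge of the pathways, with earlier results of these data known, and taken from the table by gene symbol. Of the 38, 35 were among the 14940 genes of the table, and all 35 were among the 13018 genes tested. Acat2, Idi1 and Fdps were not analysed here.

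The cells were LSK cells, the lineage-negative bone marrow fraction positive for Sca1 and cKit that holds stem and early progenitor cells, sorted from C57BL/6 mice. The 3 groups of 3 mice each gave 1 RNA-seq library per mouse: naive mice (day 0), mice on day 3 after immunization with complete Freund's adjuvant plus the myelin peptide MOG35-55, and mice immunized in the same way that received SR59230A, a β3-adrenergic receptor antagonist, over 3 days. Immunization of this kind is used to induce experimental autoimmune encephalomyelitis (EAE), and day 3 precedes the usual onset of paralysis. Both EAE groups carried the adjuvant and the peptide together, no adjuvant-only group was part of the design, and no vehicle for SR59230A is named, so the adjuvant, the peptide and an injection as such cannot be told apart.

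Cholesterol is built from acetyl-CoA through mevalonate, farnesyl diphosphate, squalene and lanosterol, while fatty acids are built from acetyl-CoA and malonyl-CoA and are then elongated and desaturated. When membrane sterol is low, the chaperone SCAP carries SREBP transcription factors to the Golgi, where they are cut free to switch on synthesis and uptake genes, and INSIG proteins hold SCAP back when sterol is plentiful. Oxysterols act in the opposite direction through LXR receptors, which turn on the export pumps ABCA1 and ABCG1, and in mice loss of these pumps expands the stem and progenitor compartment.

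The deposited values were whole numbers that the authors had adjusted, and they sum to between 8641735 and 10387955 per library. They are not read counts: over the 4577 most abundant genes, the log values of the 9 libraries satisfied 2 linear relations, so that the seventh and eighth components held 6.705e-05% and 5.938e-05% of the variance against at least 2.44% for each of the first 6. Sequencing depth is therefore unknown, and levels are given below on the scale of these values after scaling between libraries. The gate genes Kit and Ly6a (Sca1), and also Cd34, were present in every library. The 8 gate and stem cell markers summed to 28040 to 28760 in naive, 21320 to 22690 in EAE and 22460 to 23550 in treated libraries. Between EAE and naive, 4 of them passed as lower (Kit, Flt3, Procr and Hlf) and 1 as higher. The higher one was Ly6a, with means of 1531, 2099 and 2433 (adjusted p = 0.0226, limma-trend), while Kit had means of 6876, 5116 and 5049. The summed level of 6 granulocyte-monocyte progenitor markers was 1854 to 2465 in naive, 13400 to 20490 in EAE and 13460 to 14540 in treated libraries. That of 8 mature neutrophil markers was 2308 to 6143, 3079 to 15340 and 6989 to 15610 in the same order, and that of 5 monocyte and macrophage markers was 600.8 to 1006, 1864 to 2056 and 1890 to 1977. Most of the rise in the monocyte sum was Ccr2, a chemokine receptor of monocytes, with means of 68.3 in naive, 1172 in EAE and 952.8 in treated libraries, while Cd68 (651.7, 766.2 and 937.5), Mrc1 (27.4, 11.7 and 12.6) and Vcam1 (36.0, 7.76 and 6.57) did not pass between EAE and naive. The 4 erythroid markers measured summed to 573.7 to 614.1, 373.1 to 405.4 and 785.2 to 1007. Most of this sum was Car1 (means of 542.7, 332.8 and 830). The mean of Alas2 was higher in EAE (24.5, 36.9 and 44.3), but it did not pass between EAE and naive. The 5 B cell markers summed to 907.9 to 1163, 770.5 to 902.1 and 948 to 1028, mostly Cd79b (731.4, 736.2 and 837). Pax5 was the B cell marker that passed between EAE and naive (135, 39.3 and 67.1, adjusted p = 0.0195, limma-trend). The 3 T cell markers, mostly Cd4, summed to 139.3 to 217.9, 164.7 to 186.9 and 148.5 to 185.5. Sums of 7 endothelial and stromal markers were 3950 to 4574, 4187 to 5246 and 4789 to 5356, mostly Pecam1 and Pdgfrb, while Cdh5 (means of 59.1, 7.44 and 11.5) and Emcn (418, 275.6 and 311.8) fell in EAE (adjusted p = 0.033 and 0.00608, limma-trend). Those of 4 adipocyte markers were 703.2 to 761.6, 589.6 to 662 and 718.1 to 797.4, mostly Lipe (means of 665.3, 603.8 and 735.5). Fabp4 had means of 44.7, 5.26 and 5.96. Its EAE values lay below its naive values, but it did not pass (adjusted p = 0.0549, limma-trend). In bulk samples, fewer cells of a type and less RNA per cell cannot be told apart, and the part that these shifts have in the differences below was not tested unless a value is given.

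On day 3 after immunization, single steps of sterol and fatty acid synthesis rose in LSK cells and the sterol export pumps fell, by less than 1.7-fold in each case. Hmgcs1, Sqle, Msmo1, Ebp, Elovl1 and Fads2 rose, and Abca1 and Abcg1 fell, while the SREBP genes and most core enzymes did not pass the test. In the EAE to naive comparison 8 of 35 members passed (limma-trend, Benjamini-Hochberg adjusted p under 0.05 over all tested genes), or 22.9% against 14.2% of all tested genes. Of the 35, 6 were higher and 2 lower, against 9.13% of all tested genes higher and 5.10% lower. The share of members lower was thus near that of the table. Under upper-quartile scaling the split over all genes turned to 807 higher and 910 lower, and that of the members was 4 higher and 2 lower.

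**Figure D1:**
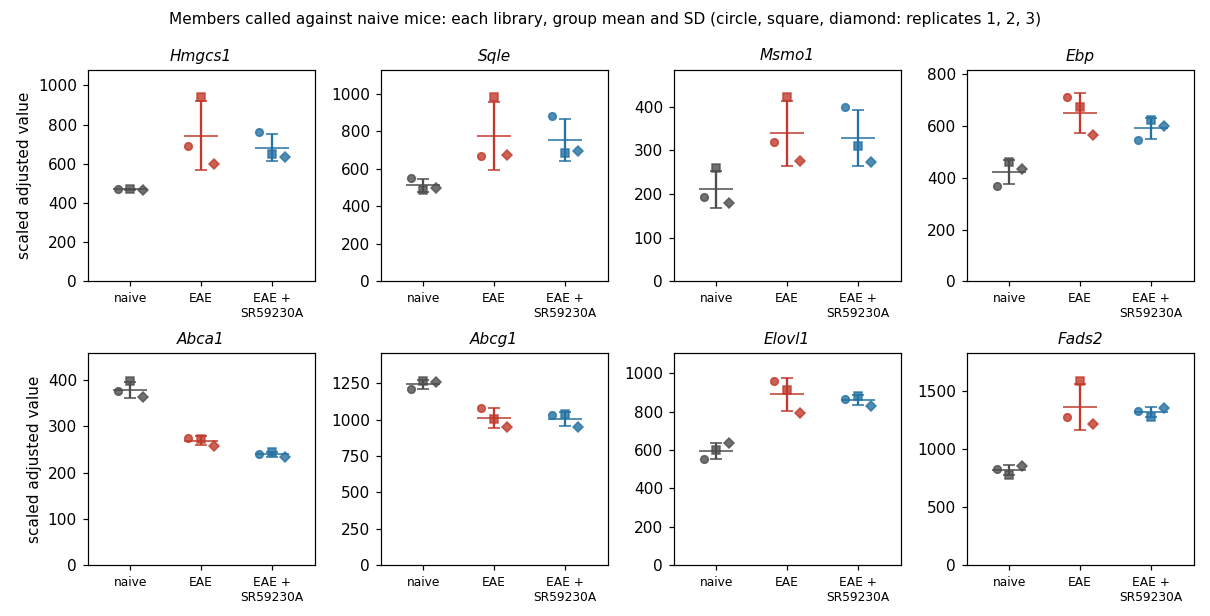
Scaled value (vertical axes, linear, each from 0) in each of the 3 naive, 3 EAE and 3 SR59230A-treated EAE libraries for the 8 members that passed the test between EAE and naive; points are libraries and bars are group means with the SD. For Hmgcs1, Sqle, Msmo1, Ebp, Elovl1 and Fads2 all EAE points lie above all naive points, and for Abca1 and Abcg1 all lie below.

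Among the 4 measured genes of the mevalonate branch, 1 rose (25%, against 9.13% of all tested genes) and none fell. In branches of 4 to 11 genes, a single call moves such a share widely. Hmgcs1 encodes the cytosolic HMG-CoA synthase, an early enzyme of the mevalonate pathway. Naive mice gave values of 473, 470 and 467, EAE mice 691, 939 and 597, and treated mice 764, 648 and 636. All EAE values lay above all naive values, and the naive libraries were nearly equal. The EAE mean was 742 ± 177 (SD, n = 3) against 470 ± 3.32 (n = 3), a log2 difference of 0.64 ± 0.15 (SE, 95% interval 0.30 to 0.97, adjusted p = 0.0175 in limma-trend), or 1.55-fold. Mvk, Pmvk and Mvd, which encode the kinases and the decarboxylase that turn mevalonate into isopentenyl diphosphate, had log2 differences of 0.34 ± 0.31, 0.19 ± 0.14 and 0.48 ± 0.25, none past the threshold. Their values overlapped between the groups: Mvk spanned 28.2 to 54.0 in naive and 38.8 to 57.3 in EAE libraries, Pmvk 164 to 174 and 169 to 219, and Mvd 56.8 to 74.9 and 62.5 to 119.7.

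Of the 11 genes from squalene to cholesterol 3 rose (27.3%, against 9.13% of all tested genes), none fell, and all 11 log2 differences were above 0. These signs lean on EAE replicate 2, which held the highest value of all 9 libraries for 9 of the 11. In EAE replicates 1 and 3, Fdft1 (-0.13 and -0.08) and Cyp51 (-0.15 and -0.02) lay below their naive log2 mean. The 3 genes that rose lay above theirs in every EAE library. Sqle encodes squalene epoxidase, an oxygen-requiring and rate-controlling step. Its values were 548, 488 and 495 in naive, 667, 980 and 670 in EAE, and 882, 683 and 695 in treated libraries. No EAE value reached down to a naive one, and the mean went from 510 ± 33.0 to 773 ± 180 (SD, n = 3 each), a log2 difference of 0.58 ± 0.16 (adjusted p = 0.0326, limma-trend), or 1.49-fold. Msmo1, the methyl sterol oxidase that starts removal of a pair of methyl groups from the sterol ring, was at 193, 260 and 179 in naive, 320, 422 and 275 in EAE, and 399, 311 and 273 in treated libraries. The lowest EAE library stood just above the highest naive one, and the log2 difference was 0.68 ± 0.20 (adjusted p = 0.0438, limma-trend), or 1.61-fold. Ebp, the sterol isomerase that moves a double bond within the ring, was at 370, 461 and 435 in naive, 712, 675 and 565 in EAE, and 547, 624 and 602 in treated libraries. The groups did not overlap, and its mean rose from 422 ± 46.7 to 651 ± 76.4 (SD, n = 3 each), a log2 difference of 0.63 ± 0.13 (adjusted p = 0.0077, limma-trend), or 1.54-fold.

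The other 8 enzymes of this branch did not pass. Hsd17b7, the ketosteroid reductase that acts after the methyl groups are removed, came nearest, with values of 93.0 to 131 in naive and 128 to 252 in EAE libraries and a log2 difference of 0.60 ± 0.24 (adjusted p = 0.122, limma-trend). Dhcr7, which makes cholesterol from its last precursor, spanned 722 to 848 in naive and 706 to 1150 in EAE libraries, so that the EAE range enclosed the naive one. Fdft1, the squalene synthase that commits farnesyl diphosphate to sterols, spanned 259 to 361 and 281 to 419. Lss, which closes squalene epoxide into lanosterol, spanned 163 to 215 and 168 to 283, and Cyp51, the lanosterol demethylase, 187 to 309 and 223 to 417. Ranges also overlapped for the sterol reductase Tm7sf2 (79.6 to 124 and 95.7 to 128), the decarboxylating dehydrogenase Nsdhl (316 to 375 and 304 to 427) and the desaturase Sc5d (267 to 311 and 292 to 418). Log2 differences of these 7 ran from 0.03 for Tm7sf2 to 0.22 for Dhcr7.

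None of the 5 genes that set SREBP activity passed, against 14.2% of all tested genes. Srebf2, whose product mainly drives sterol genes, was at 2388, 2081 and 1892 in naive, 1889, 2871 and 2519 in EAE, and 2464, 2169 and 2588 in treated libraries, with a log2 difference between EAE and naive of 0.18 ± 0.15 (adjusted p = 0.465, limma-trend). Srebf1, whose product mainly drives fatty acid genes, was at 736, 817 and 757 in naive, 838, 811 and 749 in EAE, and 883, 817 and 732 in treated libraries, with a log2 difference of 0.05 ± 0.10. Both overlapped between all groups. Scap spanned 594 to 626 in naive and 637 to 692 in EAE libraries without overlap, yet its log2 difference of 0.13 ± 0.09 did not pass (adjusted p = 0.393, limma-trend).

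Insig1, itself an SREBP target, was the most uneven member of this group within conditions. Its values were 350, 570 and 229 in naive, 404, 768 and 497 in EAE, and 654, 415 and 399 in treated libraries. The naive libraries alone differed by 2.49-fold, and the log2 difference of 0.59 ± 0.32 (95% interval -0.12 to 1.29) did not pass. Insig2, which restrains SCAP like Insig1, was at 66.9, 76.8 and 56.4 in naive, 47.0, 40.9 and 62.5 in EAE, and 70.2, 57.1 and 51.1 in treated libraries. Its log2 difference was -0.42 ± 0.25 (adjusted p = 0.296, limma-trend), and the groups overlapped.

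Among the 5 genes of the LXR axis and sterol transport, 2 fell (40%, against 5.10% of all tested genes) and none rose. Abca1, which exports cholesterol to lipid-poor apolipoprotein, was at 376, 398 and 363 in naive, 275, 273 and 257 in EAE, and 240, 244 and 234 in treated libraries. The 3 groups formed separate and narrow bands, highest in naive mice. The log2 difference between EAE and naive was -0.50 ± 0.11 (adjusted p = 0.0128, limma-trend), or 1.41-fold lower. Abcg1, which exports cholesterol to high-density lipoprotein, was at 1210, 1266 and 1257 in naive, 1081, 1005 and 949.5 in EAE, and 1034, 1036 and 948.4 in treated libraries. Naive values lay above all others, but the fall was small, -0.30 ± 0.09 on the log2 scale (adjusted p = 0.0498, limma-trend), or 1.23-fold, and the call was lost without EAE replicate 2 and without each naive replicate in turn. Nr1h2, the gene of the widely expressed LXRβ, spanned 751 to 1134 in naive and 670 to 865 in EAE libraries, a log2 difference of -0.31 ± 0.15 that did not pass. Nr1h3, the gene of LXRα, was close to the filter at 5.21 to 17.3 over all libraries. Stard4, a soluble sterol carrier, spanned 701 to 756 in naive and 545 to 861 in EAE libraries.

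Of the 10 fatty acid genes 2 rose (20%, against 9.13% of all tested genes) and none fell. Both that rose encode enzymes that modify fatty acids already made. Fads2, the desaturase that begins the conversion of essential fatty acids to long polyunsaturated ones, was at 828, 772 and 854 in naive, 1279, 1585 and 1217 in EAE, and 1327, 1273 and 1354 in treated libraries. Every naive value lay below every other value. The log2 difference between EAE and naive was 0.73 ± 0.11 (adjusted p = 0.00164, limma-trend), or 1.66-fold, the largest rise among the members. Elovl1, the elongase of saturated and monounsaturated very long chains used in sphingolipids, was at 552, 600 and 636 in naive, 959, 915 and 794 in EAE, and 868, 884 and 831 in treated libraries. Its log2 difference was 0.58 ± 0.10 (adjusted p = 0.00458, limma-trend), or 1.49-fold, and the groups did not overlap. Elovl1 shares 53 exonic bases with Cdc20, a mitotic gene on the opposite strand (GENCODE M21), and the sources used here do not say whether counting used strand. Hmgcs1 shares 557 exonic bases with Gm48342, an antisense gene. Cdc20 had a log2 difference of 0.28 ± 0.12 (adjusted p = 0.156, limma-trend).

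None of the core synthesis genes passed. Fasn, the fatty acid synthase, was at 939, 1108 and 930 in naive, 1152, 1186 and 1084 in EAE, and 1244, 1142 and 1051 in treated libraries. The lowest EAE value fell just short of the highest naive one, and the log2 difference of 0.21 ± 0.11 did not pass (adjusted p = 0.227, limma-trend). Acly, which makes cytosolic acetyl-CoA from citrate, spanned 812 to 897 in naive and 797 to 966 in EAE libraries, and Acaca, the acetyl-CoA carboxylase, 124 to 211 and 179 to 202. Scd1, a stearoyl-CoA desaturase, was at 34.5, 37.0 and 24.4 in naive, 15.4, 26.6 and 15.6 in EAE, and 30.5, 23.4 and 22.2 in treated libraries. Its log2 difference of -0.73 ± 0.34 was the lowest among the members, but it did not pass (adjusted p = 0.183, limma-trend) and 1 EAE value lay within the naive range. The related Scd2 spanned 2031 to 2333 in naive and 2125 to 2921 in EAE libraries. A stretch of 623 bases is 95.5% identical between the transcripts of Scd1 and Scd2, so reads of one may have been counted for the other. Elovl5 and Elovl6, elongases of polyunsaturated and of saturated chains, did not overlap between naive (1104 to 1213 and 84.1 to 88.1) and EAE libraries (1227 to 1480 and 96.2 to 115), yet their log2 differences of 0.24 ± 0.10 and 0.28 ± 0.17 did not pass. Fads1, the desaturase that acts after Fads2, spanned 692 to 837 and 774 to 934. Acaca, Fdft1 and Elovl6 also have near copies elsewhere in the genome (Gm5182, Gm6781 and Gm11295), and Fdft1 and Tm7sf2 share 774 and 532 exonic bases with Ctsb and Vps51, so their values are uncertain to that extent. In all, 11 members share exonic bases with another gene, 2 of them called (Hmgcs1 and Elovl1). The others include Scap (985 bases with 5830462I19Rik), Lss (381 with 4930483K19Rik), Cyp51 (166 with Akap9) and Srebf1 (109 with Rai1).

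**Figure D2:**
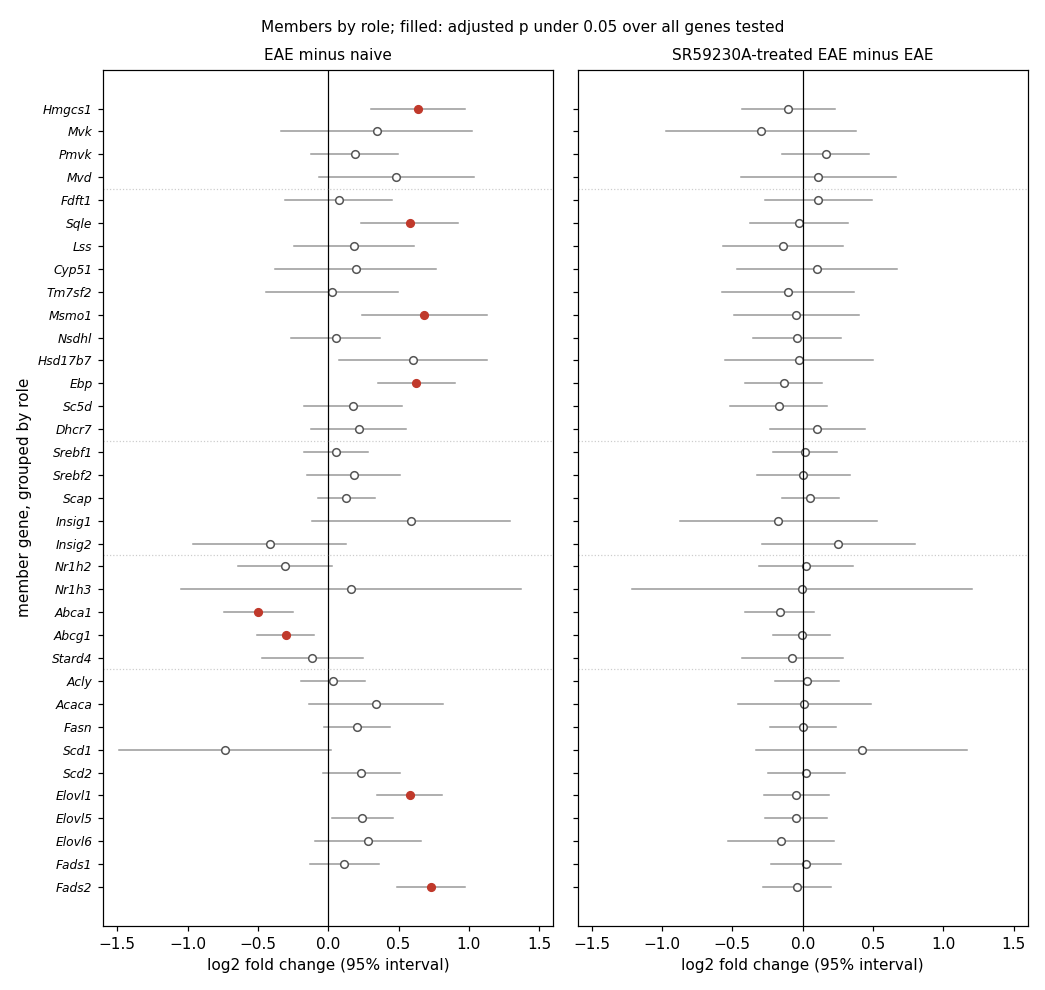
Log2 difference (horizontal axis) of each of the 35 members, grouped by role, for EAE minus naive and SR59230A-treated EAE minus EAE. Lines are 95% intervals from limma-trend, and filled points passed the adjusted threshold of 0.05. Points between EAE and naive lie mostly above 0 (29 of 35), those between the EAE groups scatter about 0 (16 of 35 above), and the filled points below 0 are Abca1 and Abcg1.

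Over all members, 29 of 35 log2 differences between EAE and naive were above 0, with a median of 0.19 against -0.003 over all tested genes. Under upper-quartile scaling 24 of 35 were above 0 (median 0.11), without EAE replicate 2 also 24 (median 0.08), and with the chemosensory share, described next, as a term 20 (median 0.10). The EAE and naive values of 11 members (31.4%) did not overlap, 9 above and 2 below, against 39.4% of all tested genes, a lower share than in the table as a whole. An unadjusted p under 0.05 in limma-trend was found for 10 of 35, or 28.6%, against 28.8% of all tested genes. Chemosensory receptor genes took 0.153 to 0.183% of the values in naive, 0.108 to 0.122% in EAE and 0.0817 to 0.101% in treated libraries, without overlap, and with this share as a term none of the 35 members and 111 of all tested genes passed between EAE and naive, and group and share cannot be told apart.

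The promoters of 28 of the 35 members are in RefSeq's table for GRCm38.p6, from 250 bases before to 50 bases after the transcription start. They were searched on both strands for the sterol regulatory element bound by SREBP (TCACNCCAC), for the CCAAT box that NF-Y binds beside it (CCAAT) and for the E-box (CACGTG). The exact sterol regulatory element was found in 1 of 28 members (3.57%), Hmgcs1, against 1.31% of the 9876 tested genes with a promoter in the table. A CCAAT box was found in 21 of 28 (75%), against 42.0%, and an E-box in 7 of 28 (25%), against 10.8%. These matches are letters in a fixed window and not measured binding. Hmgcs1 is shown as the risen member with the sterol regulatory element, Msmo1 and Ebp as risen members with CCAAT boxes only, and Abca1 as the fallen member with the larger change. Members that did not pass also held CCAAT boxes, among them Mvk, Nsdhl, Fasn and Hsd17b7, while others such as Acaca and Nr1h2 held none. The sequences shown therefore do not tie the CCAAT box to a rise. Capitals mark the matches, with ATTGG as the CCAAT box on the opposite strand, and each sequence is given 5′ to 3′ along its gene.
Hmgcs1: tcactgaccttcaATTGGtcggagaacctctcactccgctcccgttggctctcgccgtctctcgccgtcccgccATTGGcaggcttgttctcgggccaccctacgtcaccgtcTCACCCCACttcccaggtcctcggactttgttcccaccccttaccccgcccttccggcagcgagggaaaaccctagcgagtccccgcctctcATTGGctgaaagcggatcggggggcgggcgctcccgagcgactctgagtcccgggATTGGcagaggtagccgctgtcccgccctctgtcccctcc
Msmo1: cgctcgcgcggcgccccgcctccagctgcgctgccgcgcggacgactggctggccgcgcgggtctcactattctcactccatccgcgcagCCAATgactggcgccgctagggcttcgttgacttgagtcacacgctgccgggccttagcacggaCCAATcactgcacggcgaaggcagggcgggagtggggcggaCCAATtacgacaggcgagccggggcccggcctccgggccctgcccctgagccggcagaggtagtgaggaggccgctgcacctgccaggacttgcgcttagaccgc
Ebp: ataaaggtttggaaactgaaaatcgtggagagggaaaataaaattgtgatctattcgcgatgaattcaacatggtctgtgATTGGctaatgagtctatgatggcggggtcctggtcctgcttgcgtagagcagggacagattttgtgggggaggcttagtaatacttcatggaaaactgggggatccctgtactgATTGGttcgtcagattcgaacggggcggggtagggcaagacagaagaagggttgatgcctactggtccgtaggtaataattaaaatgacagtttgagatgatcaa
Abca1: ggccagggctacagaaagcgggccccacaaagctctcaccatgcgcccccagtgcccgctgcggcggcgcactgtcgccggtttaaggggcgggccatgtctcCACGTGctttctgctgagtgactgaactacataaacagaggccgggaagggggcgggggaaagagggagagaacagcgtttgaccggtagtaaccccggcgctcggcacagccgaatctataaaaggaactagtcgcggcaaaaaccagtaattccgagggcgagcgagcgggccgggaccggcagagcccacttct
The windows are chr13:119690101-119690400 (plus strand) for Hmgcs1, chr8:64733529-64733828 (minus strand) for Msmo1, chrX:8193463-8193762 (minus strand) for Ebp and chr4:53159846-53160145 (minus strand) for Abca1. In Hmgcs1 the sterol regulatory element begins 137 bases before the start site, between CCAAT boxes at -176 and -45. Msmo1 holds CCAAT boxes at -160, -96 and -55, and Ebp at -170 and -55. The Abca1 window holds neither motif and has 1 E-box at -147. Among the other called members with a promoter in the table, Elovl1 has 1 CCAAT box and Fads2 holds none of the motifs searched.

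The sterol genes also differed between libraries of the same group. The mean log2 value of the 15 measured genes from Hmgcs1 to Dhcr7, relative to the naive mean, was 0.01, 0.12 and -0.13 for naive mice, 0.20, 0.64 and 0.16 for EAE mice, and 0.43, 0.24 and 0.25 for treated mice. EAE replicate 2 stood highest, holding the top value of all 9 libraries for 11 of these 15 genes and for 18 of all 35 members. Naive replicate 3 held the lowest value for 8 of the 15. Without EAE replicate 2, 5 members passed between EAE and naive (Hmgcs1, Ebp, Abca1, Elovl1 and Fads2), and the log2 difference of Hmgcs1 became 0.45 (adjusted p = 0.0257, limma-trend), while Sqle and Msmo1 lost their calls. Sqle also lost its call without naive replicate 2 or 3, and Msmo1 without naive replicate 1 or 3 or EAE replicate 1.

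**Figure D3:**
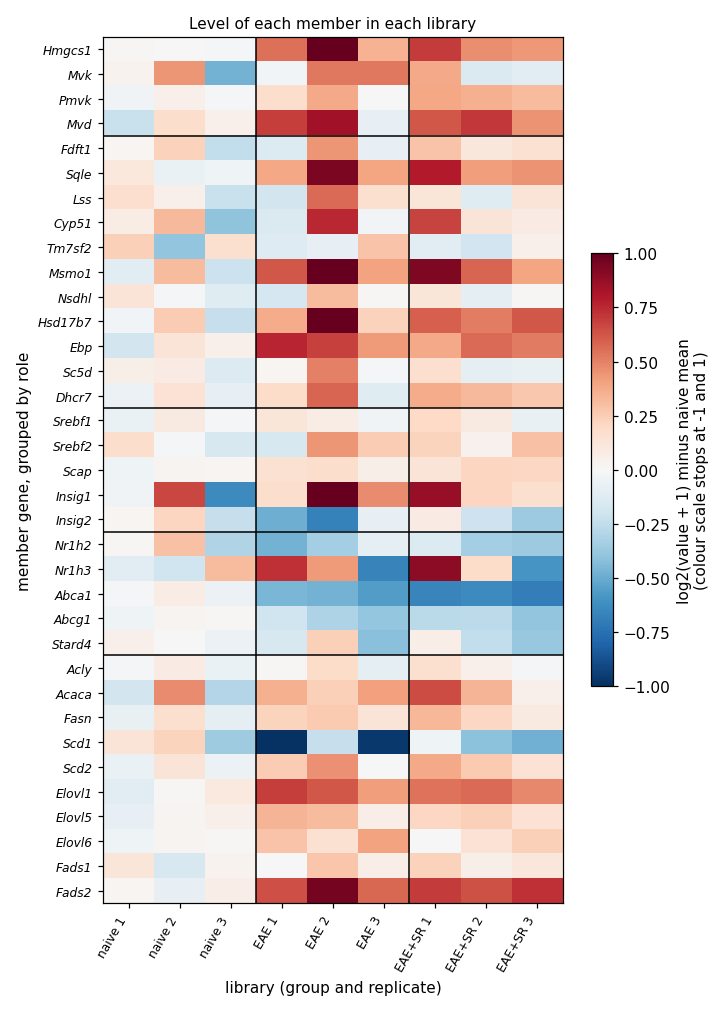
Log2 value of each of the 35 members (rows, by role) in each of the 9 libraries (columns, by group) relative to the naive mean of that gene, as a colour scale. For 11 of the 15 sterol rows the highest value is in EAE replicate 2, whose mean over the 15 sterol genes was 0.64, and Abca1 and Abcg1 run from high in naive to low in both EAE groups.

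The summed level of the mature neutrophil markers differed between these libraries as well. It was 3238, 2308 and 6143 in naive, 10920, 3079 and 15340 in EAE, and 6989, 13460 and 15610 in treated libraries, and in each group the library with the lowest sum had the highest sterol mean. The granulocyte-monocyte progenitor sum was 1854, 2465 and 2327 in naive, 15280, 20490 and 13400 in EAE, and 14270, 13460 and 14540 in treated libraries. In the naive and EAE groups, but not in the treated group, the library with the highest progenitor sum had the highest sterol mean, and the part of this sum was not tested. With the log2 of the neutrophil sum as a term, which was added after the data were seen, 11 members passed between EAE and naive, all higher, of which 6 also passed without the term, against 6.11% of all tested genes higher under that term (796 higher and 475 lower). The log2 differences were 0.88 for Hmgcs1 (adjusted p = 0.00242, limma-trend), 0.83 for Sqle (0.00502), 1.04 for Msmo1 (0.00258), 0.70 for Cyp51 (0.0201) and 1.18 for Insig1 (0.00777). Hsd17b7, Ebp, Dhcr7, Scd2, Elovl1 and Fads2 were the other 6. Abca1 and Abcg1 kept negative differences of -0.46 and -0.28 but no longer passed (adjusted p = 0.0680 and 0.166, limma-trend).

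**Figure D4:**
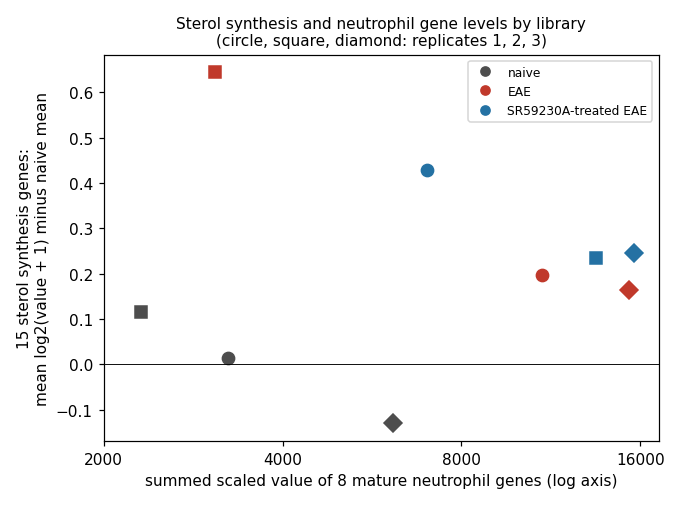
Mean log2 value of the 15 measured sterol synthesis genes relative to the naive mean (vertical axis) against the summed level of the 8 mature neutrophil markers (horizontal axis, log scale) in the 9 libraries, coloured by group. In each group the library farthest to the left is the highest, with EAE replicate 2 at a sum of 3079 and a sterol mean of 0.64.

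SR59230A given over the 3 days left no member past the threshold when the treated and untreated EAE mice were compared. None of 35 members passed, against 0.00768% of all tested genes (1 gene), and none had an unadjusted p under 0.05, where 3.87% of all tested genes did (504 genes). The lowest unadjusted p among the members was 0.166, for Abca1, and the lowest adjusted p was 0.998 (limma-trend). Abca1 was also the one member (2.86%) whose groups did not overlap, against 16.2% of all tested genes: all treated values (234 to 244) lay below all EAE values (257 to 275), a log2 difference of -0.16 ± 0.11 (95% interval -0.41 to 0.08).

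The intervals show how much this comparison could have missed. For 28 of the 35 members the 95% interval of the difference between treated and untreated EAE lay within 1.5-fold in either direction, and the median distance from the estimate to either end was 0.34 on the log2 scale. Hmgcs1 differed by -0.10 ± 0.15 (-0.43 to 0.23), Ebp by -0.14 ± 0.13 and Fads2 by -0.04 ± 0.11. The interval reached past 1.5-fold for Mvk, Mvd, Cyp51, Insig1, Insig2, Nr1h3 and Scd1. Scd1 had the largest difference, 0.42 ± 0.34, with treated values of 22.2 to 30.5 over EAE values of 15.4 to 26.6. Of the differences, 16 were above 0 and 19 below, with a median of -0.006 against 0.01 over all tested genes. This split turned with single libraries, to 25 above and 10 below without EAE replicate 2, 9 and 26 without EAE replicate 3, and 7 and 28 without treated replicate 1. It was 26 and 9 with the mature neutrophil level as a term, and 7 and 28 without scaling, which moved the median of all tested genes to -0.08.

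Against naive mice, treated mice showed 7 of the 8 calls seen in untreated EAE mice, and both comparisons share the naive libraries. The test called 7 of 35 members (20%), against 14.8% of all tested genes. Of the 35, 5 were higher and 2 lower, against 10.2% and 4.61% of all tested genes. Without scaling, which moved the median of all genes to -0.11, 1 was higher and 1 lower, and under upper-quartile scaling 2 and 2. Hmgcs1 had a log2 difference of 0.53 ± 0.15 (1.45-fold, adjusted p = 0.0366), Sqle 0.55 ± 0.16 (1.47-fold, 0.0379), Ebp 0.49 ± 0.13 (1.41-fold, 0.0237), Elovl1 0.53 ± 0.10 (1.45-fold, 0.00693) and Fads2 0.69 ± 0.11 (1.61-fold, 0.00222, all limma-trend). Abca1 was 1.58-fold lower, at -0.66 ± 0.11 (adjusted p = 0.00303, limma-trend), and Abcg1 1.24-fold lower, at -0.31 ± 0.09 (0.045).

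Msmo1 was the member called in EAE and not in treated mice, at 0.64 ± 0.20 with an adjusted p of 0.0549 in limma-trend, and its difference between the 2 EAE groups was -0.05 ± 0.20. For 6 of the 8 members called in EAE the treated mean lay between the naive and the EAE mean, and for Abca1 and Abcg1 it lay beyond the EAE mean. These 8 were picked by their EAE values, so this position cannot be read as an effect of SR59230A. None of the 8 passed between the 2 EAE groups. Treated and naive libraries did not overlap for 15 members (42.9%), 13 above and 2 below, against 48.8% of all tested genes. Pmvk, Mvd, Dhcr7 and Scd2 were among these 15 and did not pass. The call of Hmgcs1 was lost without naive replicate 1 or 2 or treated replicate 1 or 2, that of Sqle without any one naive replicate or treated replicate 1, that of Ebp without naive replicate 1 or treated replicate 2, and that of Abcg1 without naive replicate 1 or 3 or treated replicate 2 or 3. With 1 replicate left out, 3 (without naive replicate 1) to 10 members passed, and no member passed with the chemosensory share as a term. Abca1, Abcg1, Ebp and Elovl1 lost their calls with the mature neutrophil level as a term, under which 9 members passed, all higher, against 5.45% of all tested genes in either direction (521 higher and 189 lower), and Elovl1 was also lost without scaling. The neutrophil sums of naive (2308 to 6143) and treated libraries (6989 to 15610) did not overlap. Group and neutrophil level therefore cannot be told apart in this comparison.

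A wider list of 98 genes of sterol and lipid handling was set beside the members. Among these, 84 were in the table and 78 tested, and between EAE and naive 10 were higher and 1 lower (14.1%, against 14.2% of all tested genes). Of the 10, 6 came from the 15 genes of sterol uptake, esterification and trafficking (40%, against 9.13% of all tested genes higher). In this subgroup 8 log2 differences were above 0 and 7 below, and the list was chosen with earlier results of these data known. Vldlr, the receptor that takes up triglyceride-rich lipoprotein, went from 232 ± 29.1 in naive to 983 ± 44.0 in EAE and 844 ± 36.2 in treated libraries (SD, n = 3 each). This rise of 2.09 ± 0.10 on the log2 scale (4.27-fold, adjusted p = 3.89e-07, limma-trend) exceeded that of every member. Scarb1, a receptor for high-density lipoprotein, went from 865 ± 4.01 to 1416 ± 65.8 and 1373 ± 80.8, a log2 difference of 0.71 ± 0.09 in EAE (adjusted p = 0.000471, limma-trend). Npc2, which lifts cholesterol out of the lysosome, rose by 0.65 ± 0.10 and by 0.77 ± 0.10 on the log2 scale in EAE and treated mice. The cholesterol esterifying enzyme gene Soat2 rose by 0.75 ± 0.17 in EAE (adjusted p = 0.0155, limma-trend).

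Among the triglyceride and phospholipid genes, Dgat2, an enzyme of the last step of triglyceride synthesis, rose from 10.9 ± 2.6 to 31.4 ± 5.11 in EAE (log2 difference 1.47 ± 0.36, adjusted p = 0.0198, limma-trend) at values near the filter. Agpat3, a lysophosphatidic acid acyltransferase gene, was the single one that fell, from 457 ± 42.7 to 288 ± 30.1 in EAE and 340 ± 13.6 in treated libraries (log2 difference -0.67 ± 0.12, adjusted p = 0.00498, limma-trend). No gene of the wider list passed between treated and untreated EAE. Against naive mice, 10 were higher and 1 lower in treated mice (14.1%), among them the desaturase family gene Fads3 at 0.89 ± 0.20 (adjusted p = 0.0137, limma-trend).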

How the data were processed

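RNA (RNeasy micro kit, per the labels' protocols) from sorted LSK cells of 9 C57BL/6 mice was sequenced. The deposited table holds 1 whole-number score per gene and library. DESeq2 is listed in the submitters' processing notes with no version and no stated use. The aligner, counter, annotation and genome build were not given in the sources used here. Because the log values obeyed 2 linear relations, which lay almost wholly within groups (99.4% and 99.7%), the authors' scores were not treated as counts and depth is unknown.

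Scaling was by median of ratios, with factors of 0.9005 to 1.107. Genes with a deposited value, before scaling, of at least 10 in at least 3 libraries were tested. The test was limma-trend (limma 3.58.1, R 4.3.3) over all 9 libraries on log2(scaled value + 1), which understates changes of low genes. The 2 missing directions were covariates, leaving 4 residual degrees of freedom. Tests were 2-sided with Benjamini-Hochberg adjustment over all tested genes at 0.05, and the code was tested on simulated data. Intervals are unadjusted. Replicate numbers follow deposit order and pair nothing. The labels speak of separate mice.

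All members were named. Those called, and Srebf1, Srebf2, Insig1, Insig2, Fasn and Scd1, were given in every library. Of the wider list, at most 5 called genes per comparison and direction, by size, were named; some results of that list are not reported here. Members and lists were chosen with earlier results of these data known. Promoters came from RefSeq, exon overlaps from GENCODE M21, and near copies (at least 95% identity over at least 200 bases) from BLAST 2.17.0. The printed promoters of Msmo1, Ebp and Abca1 were chosen after values were seen. Alternatives covered scaling, pseudocount, filter, missing directions, libraries in the fit, chemosensory share, neutrophil level and each replicate left out.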

Additional observations from a re-analysis of the deposited data

How the results depend on the processing

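No direction of a called member reversed under any alternative run, and no member passed between treated and untreated EAE under any of them. Between EAE and naive, 4 of the 8 calls (Hmgcs1, Ebp, Elovl1 and Fads2) were lost only with the chemosensory share as a term, which separates the groups. Members called numbered 5 without scaling, 0 with that term, and 5 (without EAE replicate 2) to 12 (without EAE replicate 3) with 1 replicate left out, against 8. Sqle, Msmo1 and Abcg1 were the least stable, losing their calls in 6, 7 and 9 of 18 alternatives. Between treated and naive, members called numbered 2 without scaling, 4 with upper-quartile scaling, 0 with the chemosensory term, 15 in a fit of the 6 libraries of the groups compared, and 3 to 10 with 1 replicate left out, against 7.

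Over all genes, calls between EAE and naive numbered 1059 without scaling, 3485 without the missing directions as terms, 111 with the chemosensory term, and 1236 to 2622 with 1 replicate left out, against 1853. Between treated and naive they numbered 1073, 3920 and 13 in the same order, 710 with the neutrophil term, 4440 in the fit of 6 libraries, and 1237 to 3321 with 1 replicate left out, against 1932. Between treated and untreated EAE they numbered 0 with the chemosensory term and 2 in the fit of 6 libraries, against 1. The cause of these changes was not tested. No paired analysis was possible because the labels carry no replicate numbers that link mice across groups. With depth unknown, the counting error behind each value cannot be given.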
